A study of Mus musculus with 41 samples.

Results

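The genes described here are 10 secretory and luminal gene products of the mammary gland, Aqp5, Clca3a2, Ltf, Trf, Lcn2, Apod, Slpi, Wfdc18, Muc1 and Spp1, out of 47480 gene symbols measured in 41 mouse mammary tumors. They were selected on their values in these same tumors, with single tumors and the claudin-low tumors in view, so those levels are given as a description without a test. All 10 symbols were found in the table, and all 10 passed the filter on low values.

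The study bred Balb/c mice without p53 and without Plk2. It transplanted their mammary epithelium into fat pads of wild-type mice, emptied of their own gland, where tumors arose. For p53-/- tumors it points to a transplantable bank that was built earlier in a similar way. Whether all p53-/- tumors used here came from that bank is not stated, and any difference of origin cannot be told apart from the genotype. RNA was sequenced from 28 Plk2-/-; p53-/- tumors, called Plk2-null here, and from 13 p53-/- tumors, called p53-null here, so every tumor lacked p53 while the host tissue around it did not. Tumors were grown orthotopically in syngeneic hosts without treatment, with 1 library each, and the age of the animals was not given. Tumors carry their genotype and number as names, for example p53null-5329 and PLK2null-1975, and T11 is a p53-null tumor. The study treated T11 and PLK2null-743 as claudin-low, a class of tumors poor in claudins and other junction proteins of epithelium. PLK2null-733 and PLK2null-732, which its text does not name, are counted as claudin-low here as well, which makes 4 tumors. The 37 others are called outside the claudin-low subtype, although the text of the study gives the class of only a few of them.

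Secretory alveolar cells of the mammary gland lie on a basal layer of myoepithelium and release into the lumen milk proteins, iron-binding proteins, protease inhibitors and lipid carriers, while mucins coat the apical face of the cells. Several of these products also serve innate defence and are made by other cells. Ltf, Lcn2 and Slpi are stored or made by neutrophils and their precursors, Spp1 is secreted by macrophages and bone cells, and Trf is best known as the iron carrier that the liver releases into blood.

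Values are estimated counts scaled in each tumor to an upper quartile of 1000 over its nonzero genes. A single read was worth 0.388 to 0.817 of these units, and values at or below 3 reads, 1.16 to 2.45 units, are called at the floor. Implied depth ran from 29409598 to 70868089 fragments. Log2 values are of value + 1, which understates the differences of genes near the floor. Plk2 itself, the targeted gene, lay between 36.6 and 553 in the Plk2-null tumors and between 186 and 8028 in the p53-null tumors. The library labelled p53null-7435 was the only 1 of the 13 inside the Plk2-null range, and the next p53-null tumor stood at 921. The titles of all 13 p53-null samples carry a series name that no Plk2-null title has, so any difference between those series cannot be told apart from the genotype. No source used here says which tumors came from separate animals, and p-values therefore measure only the spread between these samples.

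The 10 genes took from 0.0107% to 3.91% of the summed table of a tumor, with a median of 1.10%. Spp1 was the most abundant gene of the table in 4 tumors, Trf in 3, and Lcn2, Ltf and Apod in 1 tumor each. Per kilobase of the longest coding transcript, the median level over the 41 tumors was highest for Lcn2 at 64473, followed by Spp1 at 27675, Trf at 22972, Wfdc18 at 17944, Aqp5 at 4749 and Slpi at 2658. Clca3a2 at 583, Muc1 at 402, Apod at 259 and Ltf at 232 had the lowest medians per kilobase. The range over tumors was wider than the step between any neighbours in this order.

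**Figure D1:**
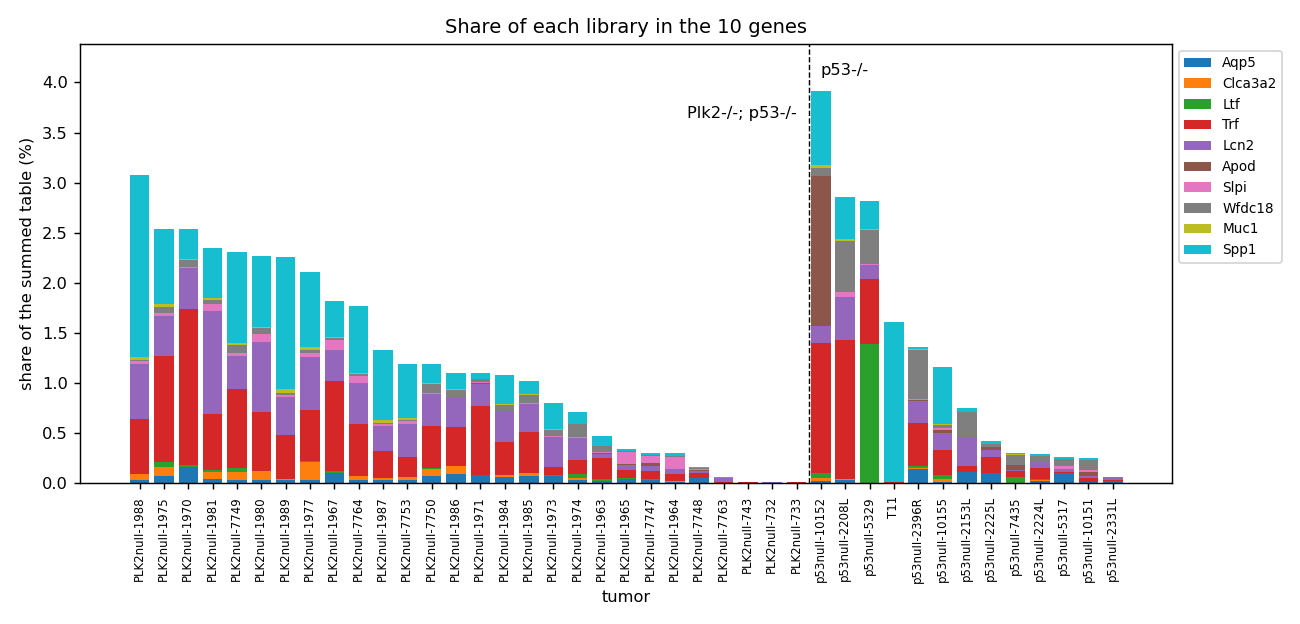
Share of the summed table (%, linear axis) taken by each of the 10 genes, stacked for each tumor, with the Plk2-null tumors left of the dashed line and the p53-null tumors right of it, each sorted by the total. The total runs from 0.0107% to 3.91%, and Ltf in p53null-5329 and Apod in p53null-10152 fill segments seen in no other tumor.

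The spread between tumors was wide for all 10 genes. The standard deviation of the log2 values over the 41 tumors ran from 2.31 for Trf to 3.99 for Clca3a2, against 0.76 for the median tested gene. Over the 37 tumors without the claudin-low tumors it ran from 1.56 for Aqp5 to 3.08 for Clca3a2, against 0.72 for the median gene. Leaving out the claudin-low tumors lowered the standard deviation of Aqp5 from 3.37 to 1.56 and left that of Apod at 2.67, from 2.68.

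**Figure D2:**
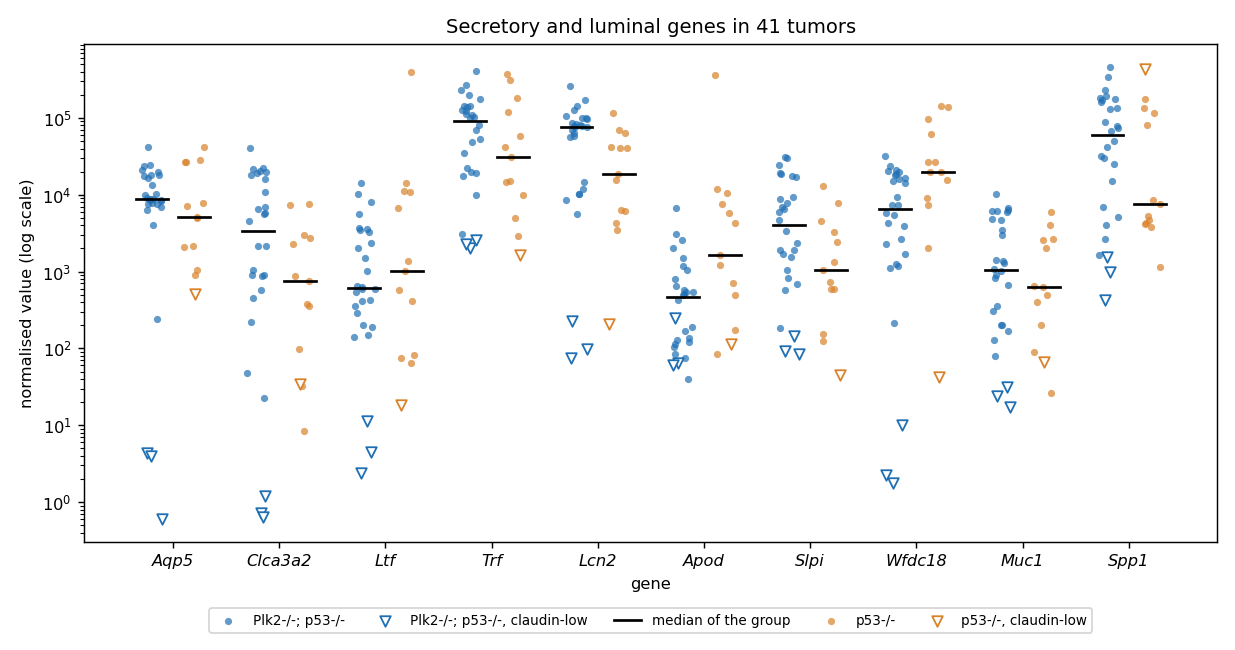
Normalised value of each gene (log axis) in every tumor, by genotype, with open triangles for the 4 claudin-low tumors and a bar at the median of each genotype. The claudin-low tumors lie at the bottom for Ltf, Trf, Lcn2 and Wfdc18, and T11 lies near the top for Spp1.

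Aqp5 and Clca3a2 handle water and ions at the cell surface. Aqp5 is the aquaporin of the apical membrane of secretory glands. It ran from 0.599 in PLK2null-733 to 41647 in PLK2null-1970 among the 28 Plk2-null tumors (median, 8822) and from 508 in T11 to 41757 in p53null-2396R among the 13 p53-null tumors (median, 5144). The high ends were nearly equal in both genotypes, and the low ends were set by claudin-low tumors.

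Clca3a2 belongs to the Clca family of secreted regulators of chloride channels. It ran from 0.630 in PLK2null-743 to 41120 in PLK2null-1977 in the Plk2-null tumors (median, 3371), and from 8.53 in p53null-5317 to 7504 in p53null-10155 in the p53-null tumors (median, 747). PLK2null-1975, which the study used as a luminal-like line, had the second highest level, 22160. Transcript sequence is shared with its neighbour Clca3a1, since 23.97% of the 50-base windows of the longest Clca3a2 transcript also occur in Clca3a1, so the division of reads between the neighbours is uncertain.

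Ltf and Trf encode lactoferrin, the iron-binding protein of milk and of neutrophil granules, and transferrin. Ltf reached 394157 in p53null-5329, where it was the most abundant gene and 1.39% of the table. The next highest tumors were p53null-7435 at 14442 and PLK2null-1975 at 14157, while the medians were 614 in the Plk2-null and 1012 in the p53-null tumors. The lowest values were 2.40 in PLK2null-733 and 18.6 in T11, so a single tumor stood far above all others.

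The same tumor was the highest of all for several genes of the milk secretion list. The β-casein gene Csn2 stood at 257509 in p53null-5329 against a median of 231 over the 41 tumors, Lalba at 60797 against 70.1, and Wap at 6837 against 3.29. The summed value of the 14 genes of the list was 1019193 in p53null-5329, and it was between 13886 and 245355 in the Plk2-null tumors.

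Ltf is also a neutrophil gene, and the 16 genes of the neutrophil list summed to 6427 in p53null-5329, the highest of the p53-null tumors (median, 1135), of which Mmp9 made up 3727. Of these genes 12 were above their median over the 41 tumors, with S100a9 at 598 against 185 and S100a8 at 357 against 183. Among the granule genes, Ngp, Mpo and Elane stood at 1.46, 1.95 and 0.487, below their medians of 6.43, 2.34 and 1.06. Of these, Ngp and Elane were at the floor. The granule gene Camp went the other way, at 6.33 against a median of 3.74, and Mmp8 was above its median over the 37 tumors without the claudin-low tumors. The part of these markers in the Ltf value was not tested.

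Trf was high in many tumors. It ran from 2014 in PLK2null-732 to 404753 in PLK2null-1970 (median, 90078) in the Plk2-null tumors and from 1634 in T11 to 373919 in p53null-2208L (median, 30938) in the p53-null tumors. It was the most abundant gene in PLK2null-1970, in p53null-2208L and in PLK2null-1975, where it stood at 271072, and the last 2 are the lines the study used as luminal-like for drug treatment. Alb, a liver gene, was at 0 in p53null-2208L and at 0.728 in PLK2null-1975. The predicted gene Gm20425 overlaps Trf on the same strand and shares 79.8% of its 50-base windows, and its mean was 501, so the split of reads between them is uncertain.

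Lcn2 and Apod are lipocalins, small carriers of lipophilic molecules. Lcn2, which binds bacterial siderophores, ran from 75.5 in PLK2null-733 to 262220 in PLK2null-1981 (median, 76178) in the Plk2-null tumors and from 206 in T11 to 114845 in p53null-2208L (median, 18769) in the p53-null tumors. Outside the claudin-low tumors no value was below 3495, and its standard deviation over those 37 tumors, 1.69 on the log2 scale, was the smallest of the 10 after that of Aqp5.

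Apod, apolipoprotein D, was low in most tumors. It stood at 358576 in p53null-10152, where it was the most abundant gene and 1.49% of the table. The next values were 11780 in p53null-7435 and 10527 in p53null-10151, and the lowest was 84.96 in p53null-2208L (median of the p53-null tumors, 1642). In the Plk2-null tumors it ran from 40.4 in PLK2null-1988 to 6755 in PLK2null-7747 (median, 463). The tumor p53null-10152 thus stood far above all other tumors, although the groups overlapped over most of their range.

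That tumor was also high for other genes of the set, with Trf at 312451, Spp1 at 178016 and Muc1 at 5989. Its Slpi was low at 595. Its macrophage list summed to 11930 and its neutrophil list to 244, each the lowest of the p53-null tumors.

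Slpi and Wfdc18 carry the WAP domain of secreted protease inhibitors. Slpi, the secretory leukocyte protease inhibitor, ran from 83.8 in PLK2null-732 to 31315 in PLK2null-1964 (median, 4054) in the Plk2-null tumors and from 45.01 in T11 to 13186 in p53null-2208L (median, 1048) in the p53-null tumors. The groups overlapped, with the high end in the Plk2-null tumors.

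Wfdc18 had its high end in the p53-null tumors. It ran from 1.80 in PLK2null-733, at the floor, to 32029 in PLK2null-1974 (median, 6565) in the Plk2-null tumors and from 42.8 in T11 to 143303 in p53null-2396R (median, 20004) in the p53-null tumors. In all, 4 p53-null tumors, p53null-2396R, p53null-2208L at 137690, p53null-5329 at 95822 and p53null-2153L at 62479, were above every Plk2-null tumor.

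Muc1 and Spp1 are glycoproteins of the luminal surface and of the secretion. Muc1, the transmembrane mucin of luminal cells, ran from 17.4 in PLK2null-733 to 10127 in PLK2null-1989 (median, 1051) in the Plk2-null tumors and from 26.2 in p53null-2331L to 5989 in p53null-10152 (median, 635) in the p53-null tumors. Spp1, osteopontin, a secreted ligand of integrins and of CD44, ran from 422 in PLK2null-733 to 465812 in PLK2null-1988 (median, 59569) and from 1144 in p53null-2331L to 432202 in T11 (median, 7661). At its highest Spp1 was 1.82% of a table. For both genes the genotypes overlapped over most of their range.

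In the claudin-low tumors the 10 genes were at the bottom of the range, with Apod and, in T11, Spp1 as exceptions. The mean log2 value of the 4 claudin-low tumors minus that of the 37 others was -10.26 for Wfdc18, -9.49 for Aqp5, -8.87 for Clca3a2, -8.17 for Lcn2 and -7.26 for Ltf. It was -5.11 for Slpi, -5.03 for Muc1, -4.76 for Trf, -2.97 for Spp1 and -2.87 for Apod, against 0.0017 for the median of all tested genes. For 4 of the 10 genes, Ltf, Trf, Lcn2 and Wfdc18, each claudin-low value was under the lowest of the 37 others. For Aqp5, Clca3a2 and Slpi this held for 3 of the 4 tumors, for Muc1 and Spp1 for 2, and for Apod for 0. The share of all tested genes that separated in this way is not given here, so these counts are not read as particular to the 10 genes. Of all tested genes 0.0058% had a lower difference than Wfdc18, 1.99% a lower one than Trf and 5.26% a lower one than Apod. These values were among those that chose the genes, so no test is given.

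Some of these values were at the floor. Clca3a2 stood at 0.716 in PLK2null-732, at 1.198 in PLK2null-733 and at 0.630 in PLK2null-743, all at or below 3 reads, and Aqp5 in PLK2null-733 was the value of 1 read. Trf, in contrast, kept 2014, 2264 and 2564 in these tumors and 1634 in T11, levels well above the floor.

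T11 differed from the other 3 claudin-low tumors. Its Spp1, 432202, was the second highest of the 41 tumors and the most abundant gene of that tumor, against 1552 in PLK2null-732, 422 in PLK2null-733 and 987 in PLK2null-743. Its Aqp5 stood at 508, against 4.30, 0.599 and 3.95 in those tumors. The simple-epithelial keratins Krt8 and Krt18 stood at 11057 and 22508 in T11 and at no more than 63.0 in the other 3, whereas Epcam, Cldn3 and Cldn7 were low in all 4, at no more than 87.4. Cd44, which encodes a receptor of osteopontin, was 13161 in T11 and 1444 to 1757 in the other 3.

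Markers of another cell type were high where these genes were low, in PLK2null-743, PLK2null-733 and PLK2null-732. The summed value of the 6 endothelium genes, Pecam1, Cdh5, Kdr, Tie1, Esam and Emcn, was 165585 to 186496 in these 3 tumors, 6876 in T11 and 2041 to 78025 in the 37 others, with a median of 4720. The endothelial cadherin gene Cdh5 stood at 50368, 44752 and 39310 in PLK2null-732, PLK2null-733 and PLK2null-743 against a median of 1403 in the 37 others. All 6 of the 6 genes were higher in each of the 3 tumors than in all 37 others.

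The summed value of the 22 luminal epithelium genes was 8366 to 9670 in these 3 tumors, 35098 in T11 and 32556 to 406162 in the 37 others, with a median of 143643. Fabp4, on the adipocyte list and also made by endothelium, was 99093 to 124638 in the 3 tumors against a median of 870 in the 37 others. Of the 10 adipocyte genes 3, 4 and 8 were above the median of the 37 others in PLK2null-732, PLK2null-733 and PLK2null-743, and without Fabp4 the list summed to 782, 747 and 598, against a median of 601. Plin1, of the lipid droplet coat, was at 15.6 to 27.1 against a median of 5.72, and the adipokine gene Adipoq at 3.58 to 11.9 against 14.6. The part of these cell markers in the levels of the 10 genes was not tested. In these bulk tumors, fewer cells of a type and less RNA per cell cannot be told apart.

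PLK2null-7763, whose class the text of the study does not give, had the highest endothelial sum of the 37 others, 78025, and the lowest luminal sum, 32556. It was the lowest of the 37 for Aqp5 at 240 and Wfdc18 at 212, and the second lowest for Trf at 3073, Muc1 at 80.0 and Spp1 at 1651. Its Apod was not low, at rank 27 from the lowest of the 41 tumors. For 5 of the 10 genes this tumor therefore had the lowest or second lowest level of the 37.

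**Figure D3:**
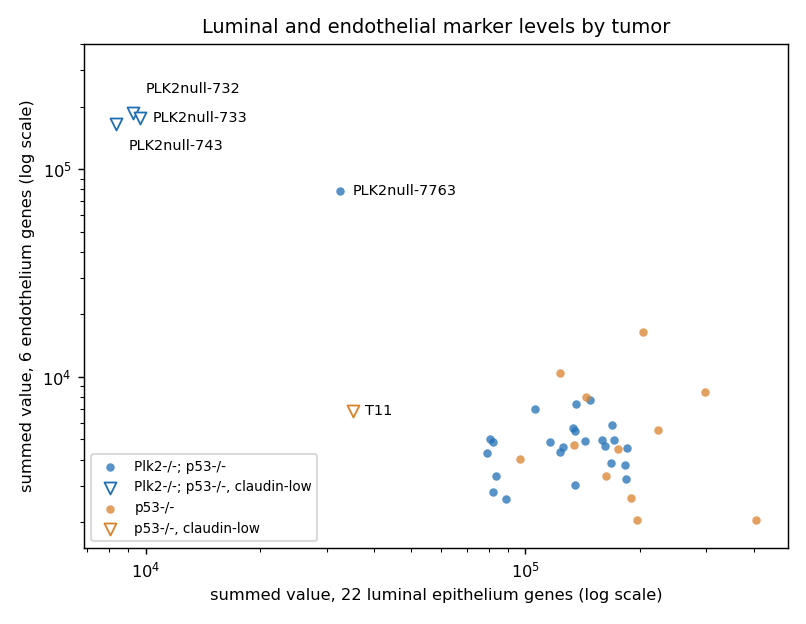
Summed value of the 22 luminal epithelium genes (horizontal, log axis) against that of the 6 endothelium genes (vertical, log axis), 1 point per tumor coloured by genotype, with open triangles for the claudin-low tumors. The 3 Plk2-null claudin-low tumors sit at 165585 or more on the endothelium axis, T11 at 6876, and PLK2null-7763 at 78025 between them and the rest.

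The Clca family split in these tumors. Clca2 stood at 5253, 5773 and 3380 in PLK2null-732, PLK2null-733 and PLK2null-743, against a median of 190 and a highest value of 2532 in the 37 others, the latter in PLK2null-7763. Clca3a1, the closest relative of Clca3a2 in sequence, stood at 14.4 to 25.9 in the 3 tumors and at 4.47 in T11. Clca2 was therefore high in the same tumors in which Clca3a2 was at the floor.

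The study assigned further Plk2-null tumors to its luminal-like class, and the 2 lines it used as luminal-like for treatment, PLK2null-1975 and p53null-2208L, are described here. They differed in part in which of the genes ranked among the 5 highest of 41. In PLK2null-1975, Clca3a2, Ltf, Trf, Muc1 and Spp1 ranked among the 5 highest of 41, with Muc1 at 6166 and Spp1 at 192872. In p53null-2208L, Trf, Wfdc18 and Lcn2 did, and Slpi at 13186 ranked 8 from the highest. Some genes fell just past that cut, with Lcn2 at 100839 and rank 7 in PLK2null-1975 and Muc1 at rank 10 in p53null-2208L. Spp1, Clca3a2 and Ltf ranked 14, 17 and 19 in p53null-2208L, and Wfdc18 ranked 16 in PLK2null-1975. Apod was 545 in PLK2null-1975 and 84.96 in p53null-2208L, neither of them high.

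Among the 37 tumors outside the claudin-low subtype, part of the set varied together. Over these tumors 36 of the 45 pairs had a positive Pearson r on the log2 scale, with a median of 0.30, compared with 42 pairs and a median of 0.61 over all 41 tumors. The highest r was 0.88 for Muc1 and Spp1, and Clca3a2, Trf, Lcn2, Muc1 and Spp1 formed a group in which all 10 pairs had r between 0.70 and 0.88, with Spearman rho between 0.64 and 0.90. These 10 pairs were the only ones of the 45 above 0.5. The group was put together after these correlations were seen, the points share libraries and depth, and tumors that may be related are not independent, so no p is given.

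Wfdc18, Aqp5, Slpi and Ltf stood outside this group, with no r above 0.46 to any other member. Apod had a negative r with each gene of the group, at -0.55 with Lcn2, -0.41 with Spp1 and -0.32 with Clca3a2. It was weaker with Muc1, at -0.24, and with Trf, at -0.19. PLK2null-1988, the tumor of the highest Spp1, had the lowest Apod of all.

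**Figure D4:**
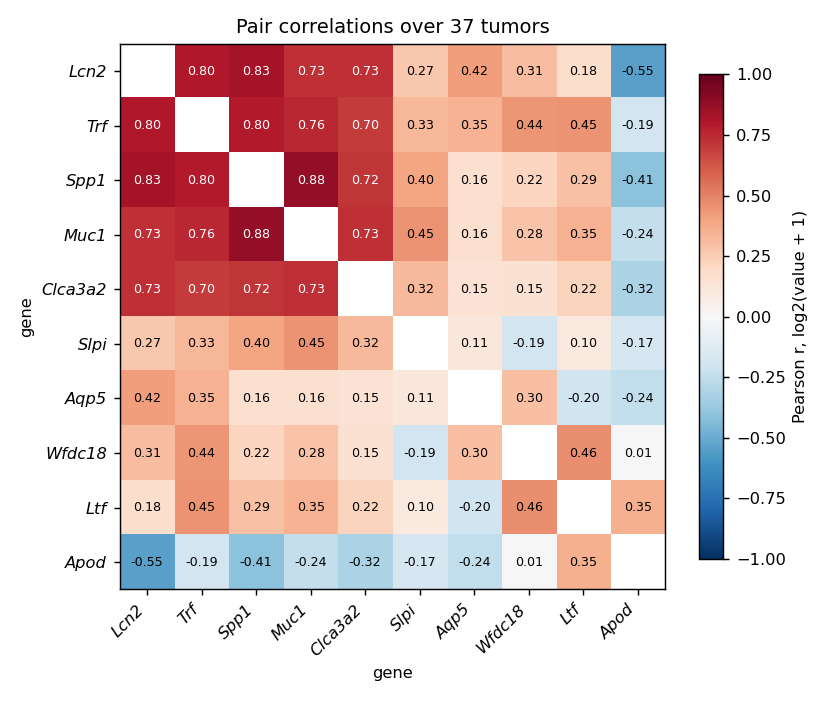
Pearson r of log2(value + 1) for each pair of the 10 genes over the 37 tumors outside the claudin-low subtype, printed in each square and coloured from -1 to 1. The block of Lcn2, Trf, Spp1, Muc1 and Clca3a2 holds r of 0.70 to 0.88, and the row of Apod is mostly negative, down to -0.55.

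The genes of most similar pattern were found for each of the 10 by Pearson r on the log2 scale. Muc1 was followed most closely over the 41 tumors by Stat3 (0.85), a transcription factor, and Osmr (0.84), a receptor of oncostatin M. Over the 37 tumors Spns2 (0.88) was most like Muc1, ahead of Stat3 (0.83) and Osmr (0.82). Spp1 was most like Plppr3, Lif and Clec5a over the 41 tumors (each 0.82), and most like Osmr over the 37 (0.84). The gene most like Trf was Cd14, the co-receptor for endotoxin, over 41 tumors (0.87) and over 37 (0.85). Aqp5 was most like Faim2 over 41 tumors (0.94) and over 37 (0.85).

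Clca3a2 was most like Clca3a1 over the 37 tumors (0.91), a pair that shares transcript sequence. Wfdc18 over the 41 tumors was most like Tmem79, Fxyd3 and the claudin gene Cldn7 (0.92 to 0.93), and over the 37 tumors like Slc6a14 (0.78). Lcn2 went from Esrp2 (0.91), a splicing factor of epithelium, to Erich2 (0.89) once the claudin-low tumors were left out. Ltf was followed by Bglap3 (0.79) and Btn1a1 (0.78), the butyrophilin of milk fat globules, Apod by Paqr6 (0.86) and Slpi by Cldn2 (0.78) over the 41 tumors. Over the 37 tumors the most similar genes were Btn1a1 for Ltf (0.67), Ccdc8 for Apod (0.87) and Trib2 for Slpi (0.74). Each of these is a description over tumors that share preparation and, in part, may share origin.

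Tumors that resembled each other over the rest of the transcriptome also had closer levels of the 10 genes. Over the 2000 most variable genes, with the 10 genes left out, the nearest tumor of each of the 41 gave 31 pairs. The median absolute log2 difference within these pairs was between 0.53 for Lcn2 and 1.92 for Clca3a2, while over all 820 pairs of tumors it was between 1.69 for Aqp5 and 3.61 for Clca3a2. The 820 pairs include those of claudin-low with other tumors, and near pairs, such as PLK2null-732 and PLK2null-733 (r 0.96), may be related. The genes were selected on their values in these tumors, so this is a description only. No value for other genes stands beside it, so closer levels in near pairs are not shown to be particular to the 10 genes.

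Upstream sequences are shown for Muc1 and Spp1 of the co-varying group, whose windows held no annotated exon, for Wfdc18, which had the largest claudin-low difference, and for Apod, which ran against the group. RefSeq promoter windows on GRCm38.p6 were examined for 8 of the 10 genes, and the 250 bases before the start are printed 5′ to 3′ on the strand of the gene. Capitals mark TATAAA. The AP-1 motif TGANTCA and the C/EBP motif TTGCNNAA were also searched on both strands and are in none of the printed windows.
Muc1, chr3:89228806-89229055, plus strand: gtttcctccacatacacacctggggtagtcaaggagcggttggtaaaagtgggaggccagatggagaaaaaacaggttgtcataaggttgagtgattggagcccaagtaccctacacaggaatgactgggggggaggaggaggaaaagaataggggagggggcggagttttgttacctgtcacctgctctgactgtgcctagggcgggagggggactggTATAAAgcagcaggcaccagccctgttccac
Spp1, chr5:104434861-104435110, plus strand: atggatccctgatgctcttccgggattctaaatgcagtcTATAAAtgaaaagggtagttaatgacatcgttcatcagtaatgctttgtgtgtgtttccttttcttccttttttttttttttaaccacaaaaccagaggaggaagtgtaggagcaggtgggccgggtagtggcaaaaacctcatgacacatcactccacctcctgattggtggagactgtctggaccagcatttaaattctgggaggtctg
Wfdc18, chr11:83708754-83709003, plus strand: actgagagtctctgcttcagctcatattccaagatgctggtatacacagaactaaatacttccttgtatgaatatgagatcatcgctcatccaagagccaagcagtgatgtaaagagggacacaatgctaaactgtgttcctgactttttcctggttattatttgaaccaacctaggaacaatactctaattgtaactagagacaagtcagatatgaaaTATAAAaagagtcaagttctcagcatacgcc
Apod, chr16:31314809-31315058, minus strand: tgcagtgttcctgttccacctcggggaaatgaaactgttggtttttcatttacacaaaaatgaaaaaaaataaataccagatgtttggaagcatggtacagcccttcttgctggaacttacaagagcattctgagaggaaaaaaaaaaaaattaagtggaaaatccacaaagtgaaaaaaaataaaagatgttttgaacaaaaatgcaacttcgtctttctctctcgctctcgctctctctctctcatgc

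TATAAA began 31 bases before the start in both Muc1 and Wfdc18 and 211 bases before it in Spp1. It occurred in 3 of the 8 windows and in 12.97% of the 27025 RefSeq promoters of the same length. TTGCNNAA occurred in the windows of Ltf, Lcn2 and Slpi, which is 3 of 8, and in 9.55% of all promoters. The RefSeq start used for Slpi lies inside the longest GENCODE extent of the gene. TGANTCA was in 0 of the 8 windows and in 6.87% of all promoters, and the STAT motif TTCNNNGAA in 0 of the 8 and in 7.18%, which says only that these letters are not in these windows. The ETS motif AGGAAG was in the windows of Ltf, Lcn2, Wfdc18 and Spp1, which is 4 of 8, and in 29.15% of all promoters. Of the co-varying genes only Lcn2, Muc1 and Spp1 had an examined window, and none of the 5 motifs was in all 3. Annotated exons covered 246 of the 250 bases of the Aqp5 window, 197 of the Lcn2 window and 21 of the Ltf window.

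The comparison of genotypes asks whether loss of Plk2 on top of loss of p53 went with other levels of these products. Over all tested genes 6802 of 17208, 39.5%, differed between the 28 Plk2-null and the 13 p53-null tumors at an adjusted p below 0.05 (limma, Benjamini-Hochberg), 4175 of them higher and 2627 lower in the Plk2-null tumors. That split depends on the scaling, with 3489 higher and 3258 lower after quantile normalization and 3381 higher and 3489 lower after median-of-ratios rescaling, which moved the median difference of all genes from 0.10 to 0.0038 and -0.018. Of the 10 genes 1 passed, Apod. Genotype values of the genes were in view when they were chosen, so the count is set beside the share of all genes and supports nothing by itself. The fit took every tumor as independent. Some Plk2-null tumors were much alike, such as PLK2null-732 and PLK2null-733 (r 0.96) and PLK2null-1985 and PLK2null-1986 (r 0.91). If such tumors are related, the SEs, intervals and adjusted p-values of this comparison are too small.

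Apod was lower in the Plk2-null tumors by a log2 difference of -2.49 (SE, 0.80, limma adjusted p = 0.0116). Without p53null-10152, the tumor of the extreme value, the difference was -1.87 (limma adjusted p = 0.0372). With the Plk2-null group limited to 7 tumors taken here as primary, the difference was -1.81 and did not pass (limma adjusted p = 0.392). The text of the study does not list which tumors were primary, so this subset is a choice made here. The other 9 did not pass. Wfdc18 had a log2 difference of -2.40 (SE, 1.16, limma adjusted p = 0.0953), and Slpi one of 1.53 (SE, 0.82, limma adjusted p = 0.137). Clca3a2 stood at 1.46, Lcn2 at 0.96, Spp1 at 0.88, Trf at 0.73 and Muc1 at 0.49, and Ltf at -0.96 and Aqp5 at -0.32, with limma adjusted p-values from 0.395 to 0.847. Intervals of these differences were wide, from -1.18 to 4.09 for Clca3a2 and from -0.98 to 2.91 for Lcn2 at the 95% level, and both held 0 and differences of more than 2 on the log2 scale.

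The claudin-low tumors weighed on this comparison. Without them, 25 Plk2-null tumors were set against 12 p53-null tumors, and 7244 of 17080 tested genes, 42.4%, passed. Of the 10 genes 4 passed. Lcn2 was higher in the Plk2-null tumors by 1.397 (SE, 0.54, limma adjusted p = 0.0351) and Slpi by 1.73 (SE, 0.70, limma adjusted p = 0.0422), while Wfdc18 differed by -1.99 (SE, 0.62, limma adjusted p = 0.00947) and Apod by -2.61 (SE, 0.82, limma adjusted p = 0.00942). The share of 4 of 10 was near the 42.4% of all genes.

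In this comparison without the claudin-low tumors, Spp1 at 1.89 (limma adjusted p = 0.0539) and Clca3a2 at 2.28 (limma adjusted p = 0.0623) did not pass, and Aqp5 turned from -0.32 to 0.63 (limma adjusted p = 0.356). Median values in the 25 and 12 tumors were 77801 and 29566 for Lcn2, 5888 and 1192 for Slpi, 7295 and 23306 for Wfdc18, and 515 and 2991 for Apod. The ranges of the groups overlapped for each of these 4 genes.

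**Figure D5:**
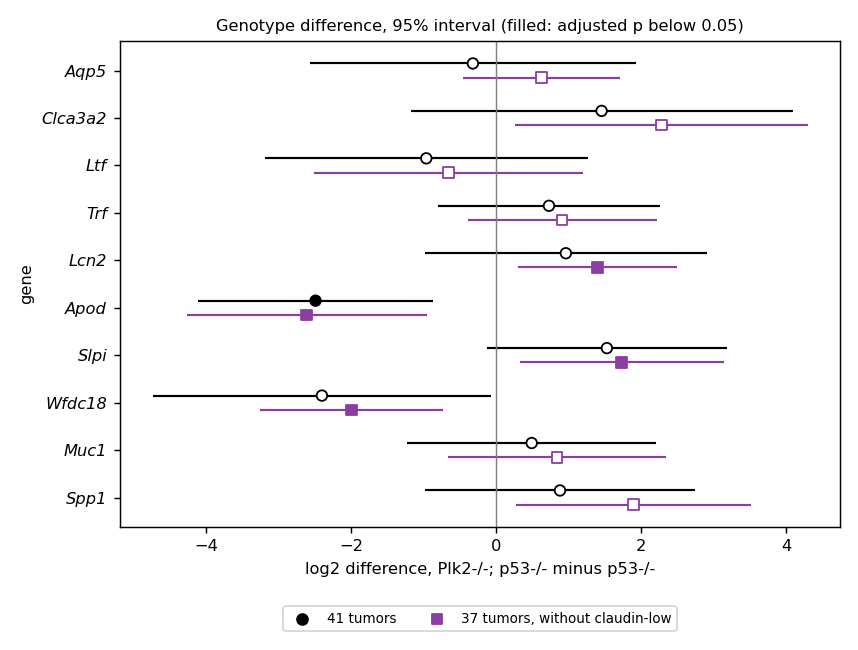
Log2 difference of each gene between the Plk2-null and the p53-null tumors (points) with its 95% interval (lines), for all 41 tumors in black and for the 37 tumors without the claudin-low subtype in purple, filled where the adjusted p was below 0.05. Apod is filled in both, at -2.49 and -2.61, and Lcn2, Slpi and Wfdc18 in the smaller set only.

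Relatives of the 10 genes were counted in the comparison of all 41 tumors, in which 24.3% of all tested genes were higher and 15.3% lower in the Plk2-null tumors. The counts describe the lists, which were not tested against other genes. Among the other aquaporins, 2 of 6 tested genes were lower in the Plk2-null tumors, Aqp1 and Aqp3. In the Clca family 1 of 3 tested genes was higher, Clca3a1, by 2.67 (SE, 0.81, limma adjusted p = 0.00721). Of the 5 other lipocalins tested 0 passed (limma; 1 at an unadjusted p below 0.05), and of 7 other WAP-domain genes 1 was lower, Wfdc12. Of 9 other mucins 1 was higher, Muc2.

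Among the 9 tested genes of the osteopontin family and receptors, 2 were higher in the Plk2-null tumors, the integrin genes Itgb3 and Itga4, and Cd44 did not pass. Of 12 tested genes of iron handling, the iron exporter Slc40a1 was higher and the ferritin gene Ftl1 lower. Of 18 tested secreted defence proteins, Lbp was higher and Defb1, Lrg1 and Lrrc26 were lower. Of the 14 milk genes and of the 22 luminal epithelium genes 0 passed (limma; 1 of each list at an unadjusted p below 0.05), and their median log2 differences were 0.17 and -0.23, against 0.10 over all tested genes.

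Cell markers were counted in the same comparison, beside the 24.3% of all tested genes that were higher and the 15.3% that were lower. The neutrophil list was higher in 5 of 10 tested genes and lower in 0, with summed values of 408 to 15846 in the Plk2-null and 244 to 6427 in the p53-null tumors. Among its genes Mmp9 stood at 4375 in T11, but its highest value over the 41 tumors is not given here. The highest value in any of the 41 tumors was 1409 for S100a9, 823 for S100a8 and 117 for Ngp. It was 56.7 for Mpo, 56.3 for Camp, 10.6 for Ly6g and 9.46 for Elane. Of the basal epithelium genes 4 of 12 were lower in the Plk2-null tumors, with Krt5 by -5.13 (SE, 1.57), and the summed values were 2781 to 136061 against 4562 to 203462. The adipocyte list was lower in 3 of 8 tested genes and the skeletal muscle list in 4 of 8. The macrophage list was higher in 2 of 14 and the fibroblast list lower in 2 of 12. Of 6 proliferation genes 1 was higher, Mki67, and of the 6 endothelium, 8 T cell and 6 B cell genes 0 passed (limma; 0 at an unadjusted p below 0.05). The part of these markers in the values of Lcn2, Slpi, Ltf, Wfdc18 and Apod was not tested.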

How the data were processed

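RNA was extracted with Qiagen RNeasy kits, libraries were made with the Illumina TruSeq mRNA kit, and paired 50-base reads were taken on HiSeq instruments. Tools named in the submitters' processing notes are STAR 2.7.6a, Salmon 1.4.0, Picard 2.22.4 and SAMtools, with mm10. The authors quantified genes with Salmon and deposited a linear signal, estimated counts scaled to an upper quartile of 1000 in each tumor. The annotation behind the table is not given in the sources used here, nor whether strand was used.

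Genotype came from the labels and subtype from the study, except for PLK2null-732 and PLK2null-733, which its text does not name. The members and gene lists were chosen with earlier results of these data known. Between 77.8 and 80.5% of nonzero values lay within 0.1 of a whole read, too few to recover reads, so no count model was used. Log2(value + 1) of genes with a mean of at least 10 was fitted with limma 3.58.1 in R 4.3.3, without a trend, and Benjamini-Hochberg adjustment covered all tested genes at a threshold of 0.05. The fit was tested on simulated data. Depth and the floor of 3 reads cover counting error only, and the ranges are the lowest and highest values over tumors. For each member the 3 genes of highest r were found among genes that are neither predicted nor members, and at most 3 genes a list were named, those of highest mean. Other genes named, such as the few called in a list, Adipoq, Plin1, Lalba, Wap, Alb and the neutrophil genes, were named after their values were seen. The pseudocount, the filter, the trend, the scaling and the set of tumors were varied, and single members were also put to permutation tests with 100000 resamples. Positions and overlaps came from GENCODE vM21 and promoters from RefSeq, both on GRCm38. The upstream windows of 2 of the 10 genes were not used here. Other steps ran in Python 3.11.15 with pandas 2.3.3, scipy 1.17.1, matplotlib 3.10.9 and numpy 2.4.6.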

Additional observations from a re-analysis of the deposited data

How the results depend on the processing

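The 14 alternatives of the genotype comparison called 5198 to 9053 genes, except with the 7 Plk2-null tumors taken here as primary. Set against the 13 p53-null tumors, these 7 called 2942 genes. This set has fewer samples and may hold fewer related tumors, and the part of each in the lower count was not tested. Members called were 1 in 12 of the alternatives, 4 without the claudin-low tumors and 0 with the 7 tumors. With the 7 tumors 0 members also had an unadjusted limma p below 0.05, against 5103 of all 17050 tested genes. Aqp5 turned from -0.32 to 0.63 without the claudin-low tumors and to 0.17 with the 7 tumors, never past the threshold, and the cause was not tested. Apod kept its direction in all 15 alternatives (-2.87 to -1.81) and missed the threshold only with the 7 tumors (limma adjusted p = 0.392). Of 10 permutation tests, 2 gave an unadjusted p below 0.05, 0.00366 for Apod and 0.0465 for Wfdc18. In the main limma fit 2 of the 10 genes had an unadjusted p below 0.05, beside 8163 of all 17208 tested genes. Genotype values were in view when the genes were chosen, so these counts support nothing by themselves. The claudin-low differences kept their direction and moved by less than 1 SD under other pseudocounts and scalings. Claudin-low subtype, tumor relatedness and the sample series were not in the labels as factors. No paired analysis was possible because the labels give no pairing between genotypes.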

Other observations

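Lists outside the secretory genes also stood out in a few tumors. The 6 B cell genes summed to 823 to 1142 in PLK2null-732, PLK2null-733 and PLK2null-743 and to 32.5 in T11. Their median in the 37 other tumors was 44.3, with 695 in PLK2null-7763 and 5448 in PLK2null-1981, the tumor of the highest Lcn2. The 8 skeletal muscle genes summed to 41425 in p53null-2153L, 30696 in p53null-7435 and 3717 in PLK2null-7764, against a median of 48.1 over the 41 tumors. Alb stood at 923 in PLK2null-733 and at no more than 351 in any of the 37 tumors outside the claudin-low subtype, while Trf, also a liver gene, was 2264 in PLK2null-733.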
